A study of Mus musculus with 2 samples.

Results

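Interferon-stimulated antiviral genes were followed as a set of 50 genes, chosen by name from the families that interferons induce in infected or alerted cells. All 50 were found as single rows among the 39017 gene identifiers of the count table, and all passed the minimum of 20 counts summed over both libraries, as did 13880 genes in all. RNA came from Lin- Sca-1+ c-Kit+ (LSK) cells of mouse bone marrow, a sorted fraction enriched in blood stem cells and early progenitors. The miR-146a-/- library was made from a pool of 6 mice that lack the microRNA miR-146a, and the WT library from a pool of 12 wild-type mice. Per the labels, both genotypes had the C57BL/6J background, the mice were 10 to 14 weeks old, and the library was single-stranded and depleted of ribosomal RNA. The labels give neither the sex of the animals nor the construction of the mutant allele. With 1 library from 1 pool for each genotype there are no replicates, and the values compare 2 libraries rather than 2 genotypes.

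Interferons are secreted proteins that bind receptors on the cell surface and activate the kinases JAK1 and TYK2. These phosphorylate STAT proteins, which join IRF9 in a complex that binds interferon-stimulated response elements (ISREs) in promoters. The genes so induced encode sensors of foreign nucleic acid, effectors that block steps of viral replication, and feedback proteins that end the response. Haematopoietic stem cells respond to interferon themselves, and Sca-1, one of the proteins used here to sort the cells, is an interferon-induced product. miR-146a is induced by NF-kB and represses adaptors of Toll-like and interleukin-1 receptor signalling.

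The mature microRNA is shown because its seed (bases 2 to 8, in capitals) defines the sites it pairs with. It lies at chr11:43374435-43374456 on the minus strand (RefSeq, GRCm38.p6).
mmu-miR-146a-5p: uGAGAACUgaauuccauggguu
A match to that seed, AGTTCTC, was found in 6 of the 50 members (12%), searched in the longest 3' untranslated region that GENCODE M21 gives each, against 13.6% of 12273 measured genes that have such a region. Pml and Ifi44 were among the 6, and their sites are shown with the match in capitals.
Pml: tagtgttaacaAGTTCTCtgggtggttct
Ifi44: tgagttttgccAGTTCTCtttcttatggc
The log2 ratios of the 6 genes, miR-146a-/- over WT, were 0.69 for Ifi44, 0.52 for Ifit2, 0.43 for Xaf1, 0.40 for Pml, 0.22 for Adar and -0.03 for Trim25, which had 2 matches. Of these 6, 0 were called higher or lower by the rule given below, where the shares over all measured genes (5.35% higher, 1.53% lower) would give few or none.

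RefSeq promoter windows, from 250 bases before to 50 after the start of transcription, were matched by symbol for 35 of the 50 members. The core of the ISRE, searched on both strands as GAAA, any 2 bases and GAAA again, occurred in 16 of these 35 (45.7%), against 3.99% of 27025 genes with a window. The gamma-activated site of interferon-gamma signalling, searched as TTCNNNGAA, which reads the same on both strands, occurred in 8 of 35 (22.9%), against 9.55% of all. The NF-kB consensus occurred in 3 of 35 (8.57%), against 5.14%. The stretches below show members with high, middle and negative ratios that all carry ISRE cores, which are in capitals. They are written along the strand of the gene, GRCm38.p6.
Ifit3, chr19:34583353-34583426, plus strand: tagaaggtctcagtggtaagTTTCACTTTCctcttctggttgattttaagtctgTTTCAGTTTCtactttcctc
Rsad2, chr12:26456533-26456592, minus strand: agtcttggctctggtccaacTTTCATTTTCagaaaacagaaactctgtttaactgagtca
Ifit1, chr19:34640765-34640824, plus strand: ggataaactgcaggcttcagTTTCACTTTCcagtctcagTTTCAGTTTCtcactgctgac
Isg15, chr4:156200857-156200916, minus strand: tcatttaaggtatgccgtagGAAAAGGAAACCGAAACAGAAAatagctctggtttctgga
Bst2, chr8:71537563-71537622, minus strand: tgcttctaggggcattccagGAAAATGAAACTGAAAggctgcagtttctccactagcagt
Oas1a, chr5:120907526-120907565, minus strand: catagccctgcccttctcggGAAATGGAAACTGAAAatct
Isg15 held 3 overlapping cores, and Ifit3, Ifit1, Bst2 and Oas1a held 2 each. In Bst2 the first core also overlapped a gamma-activated site match. The median log2 ratio of the 16 members with a core was 0.46, ranging from -0.29 to 1.67, and that of the 19 without one was 0.43, ranging from -0.38 to 0.86. Ifi204, Gbp9, Mx1, Mx2 and Zbp1, which are 5 of the 10 members called higher below, were not among the 35 and stand outside this comparison. The 8 members with a gamma-activated site had a median of 0.15, and the 27 without one 0.47. A match is a stretch of letters and not a shown binding site.

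Total counts were 22231389 in the miR-146a-/- library and 35069136 in the WT library. Gm42418, which overlaps ribosomal RNA sequence, held 27.2% of miR-146a-/- counts and 2.13% of WT counts, so levels are given as TMM-scaled counts per 1000000 (CPM). Under this scaling the median log2 ratio over all measured genes was -0.01, and by total counts it was -0.83. Ratios are therefore read relative to the median gene, and directions below are those under TMM scaling. The microRNA's own gene, Mir146, had 0 counts in both libraries and gave no check of the labels. The pools also differed in sex-linked transcripts, with Xist at 49105 counts in the miR-146a-/- library and 10988 in WT, and Kdm5d at 67 and 1263. Ratios also moved with length: over protein-coding genes with at least 200 summed counts, the median log2 ratio was 0.20 in the longest of 10 groups of like size by length and -0.24 in the shortest. The part of the sex-linked difference in the results below was not tested.

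Relative to the median gene, most antiviral genes stood somewhat above their WT level in miR-146a-/- cells. The median over the 50 was a log2 ratio of 0.44 (1.36-fold), against -0.01 over all measured genes. A gene was called when the whole 95% Clopper-Pearson interval of its ratio, which covers counting error only, lay beyond 1.5-fold. By this rule 10 of 50 members were higher (20%), against 5.35% of all measured genes, and 0 were lower, against 1.53%. Scaled by total counts, where the median of all genes is -0.83, the direction turns: 0 members were higher, against 1.01% of all genes, and 11 were lower, against 51%. Beyond 2-fold 4 members were higher and 0 lower, against 2.12% and 0.303% of all genes, and by the ratio alone, without its interval, 14 were higher and 0 lower, against 12.6% and 7.99%. With at least 200 summed counts 12 of 49 members were higher and 0 lower (4.58% and 1.21% of genes), and with GC content and length of transcripts adjusted for 11 of 50 were higher and 0 lower (5.21% and 1.33%). Under TMM scaling the ratio was above 0 for 41 members (48.8% of all genes), and the whole interval lay above 0 for 38 members (28% of all genes) and below 0 for 4 (29%). Summed over the members, the level was 4621 CPM in the miR-146a-/- library and 3436 CPM in WT, a ratio of 1.34. The same ratio of sums was 1.12 over measured protein-coding genes and 1.77 over all measured genes, Gm42418 included. In pooled bulk RNA, more cells that express a gene and more RNA per cell cannot be told apart.

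**Figure D1:**
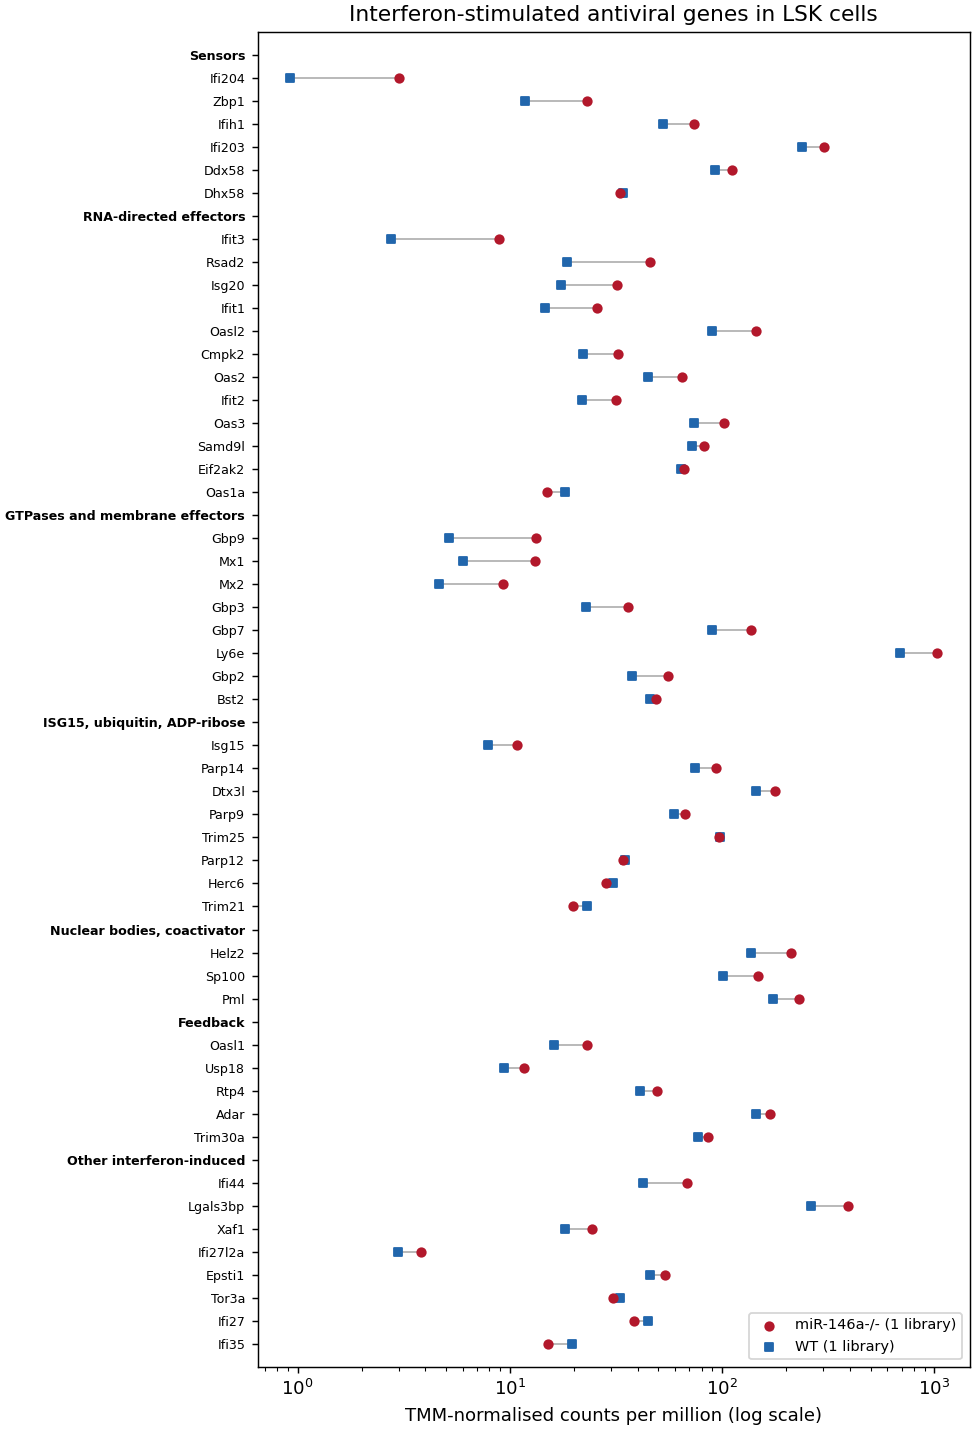
TMM-scaled CPM (log axis) of the 50 members in the miR-146a-/- library (red circles) and the WT library (blue squares), by class and ordered by ratio within each class. The widest gaps belong to Ifi204 and Ifit3, and the circle lies left of the square for 9 members, among them Oas1a, Trim21, Ifi27 and Ifi35.

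Levels among the members spanned a wide range, compared per kilobase of annotated exon. Ly6e, a membrane-anchored protein that limits entry of some viruses, was the most abundant at 272 CPM per kilobase in miR-146a-/- and 183 in WT. Lgals3bp, a secreted glycoprotein, followed at 138 and 92.5 CPM per kilobase. Next stood Bst2 (54.2 in miR-146a-/- and 50.9 in WT), Ifi203 (44.9 and 35.3) and Pml (41.3 and 31.2). Ifi204 was the least abundant at 0.840 and 0.259 CPM per kilobase. Most called members were of low level. Of the 17 members with a mean level up to 26.9 CPM, 8 were higher, and their median was 1.44-fold. Between 26.9 and 64.6 CPM 1 of 16 was higher (median 1.19-fold), and above 64.6 CPM 1 of 17 (median 1.27-fold). Protein-coding genes that are no member gave 295 of 6963, 80 of 2816 and 154 of 2491 higher in the same ranges, with medians of 0.952-fold, 0.966-fold and 1.05-fold.

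**Figure D2:**
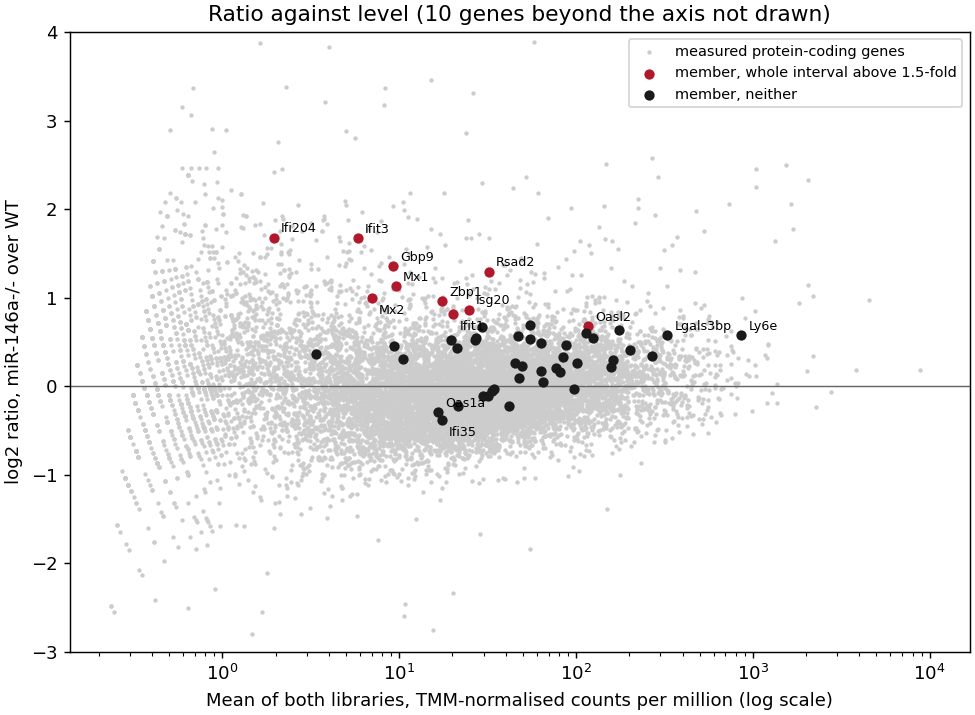
Log2 ratio of miR-146a-/- over WT against the mean level of both libraries (CPM, log axis) for measured protein-coding genes (grey) and the members (black, or red when called higher). Of the 10 red points, 8 lie at or below 26.9 CPM, while the abundant Ly6e and Lgals3bp both lie at a log2 ratio of 0.58.

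Sensors of foreign nucleic acid were uneven, with a median log2 ratio of 0.42. Of 6, 2 were higher and 0 lower, against 5.35% and 1.53% of all measured genes. Zbp1, which binds Z-form RNA and can start necroptosis, had 385 counts in miR-146a-/- and 551 in WT, or 23.0 and 11.8 CPM, a log2 ratio of 0.96 (0.77 to 1.15). Ifi204, a DNA-binding PYHIN protein, had 50 counts in miR-146a-/- and 43 in WT, a log2 ratio of 1.68 (1.08 to 2.32). Both were higher in the miR-146a-/- library, and the wide interval of Ifi204 comes with its low counts. The RNA helicases that detect viral RNA in the cytosol were not called. Ifih1, which encodes MDA5, had 74.0 CPM in miR-146a-/- and 52.7 in WT (log2 ratio 0.49, 0.39 to 0.59). Ddx58, which encodes RIG-I, had 111 and 92.3 CPM (0.27, 0.19 to 0.35), and Dhx58, which encodes the regulatory helicase LGP2, had 32.9 and 34.1 CPM (-0.05, -0.20 to 0.09). The MDA5 and RIG-I genes thus stood above the median of all genes by less than the threshold, and the interval of LGP2 included 0. Ifi203 was the most abundant sensor gene, at 301 CPM in miR-146a-/- and 237 in WT, with a log2 ratio of 0.35.

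Effectors that act on RNA or its building blocks held 5 of the 10 calls, with a median of 0.54. Of 12, 5 were higher and 0 lower, against 5.35% and 1.53% of all measured genes. Ifit3 belongs to a family that binds viral RNA without the host cap mark. It had 148 counts in miR-146a-/- and 129 in WT, or 8.85 and 2.77 CPM, a log2 ratio of 1.67 (1.33 to 2.03). Rsad2 encodes viperin, which makes a chain-terminating nucleotide, and had 761 and 864 counts, or 45.5 CPM in miR-146a-/- and 18.5 in WT (1.30, 1.15 to 1.44). Isg20, an RNA exonuclease, had 31.8 and 17.5 CPM (0.86, 0.70 to 1.02). Ifit1, which binds RNA ends directly, had 25.7 CPM in miR-146a-/- and 14.6 in WT (0.82, 0.64 to 0.99). Oasl2, a relative of the oligoadenylate synthetases, was the most abundant effector called, at 144 CPM in miR-146a-/- and 89.8 in WT (0.68, 0.61 to 0.75). These 5 genes were between 1.60-fold and 3.19-fold higher in the miR-146a-/- library.

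The oligoadenylate synthetases, which make the messenger that activates RNase L, divided. Oas2 had 64.9 CPM in miR-146a-/- and 44.9 in WT (log2 ratio 0.53), and Oas3 had 102 and 73.9 CPM (0.47, 0.39 to 0.55). Oas1a went the other way, with 249 counts in miR-146a-/- and 850 in WT, or 14.9 and 18.2 CPM (-0.29, -0.50 to -0.09). Its interval lay below 0 but within 1.5-fold, so it was not called, and it has close paralogs with which it can share reads. Ifit2 (0.52) and Cmpk2 (0.54), the mitochondrial nucleotide kinase gene beside Rsad2, stood near the class median. Samd9l, an inhibitor of translation in which human germline mutations cause bone marrow failure, had 82.5 CPM in miR-146a-/- and 71.8 in WT (0.20, 0.11 to 0.29). Eif2ak2, the kinase PKR that stops translation when it binds double-stranded RNA, had 66.2 and 64.2 CPM (0.04, -0.06 to 0.14). Under TMM scaling, the interval of Eif2ak2 included 0 and lay within 1.5-fold.

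**Figure D3:**
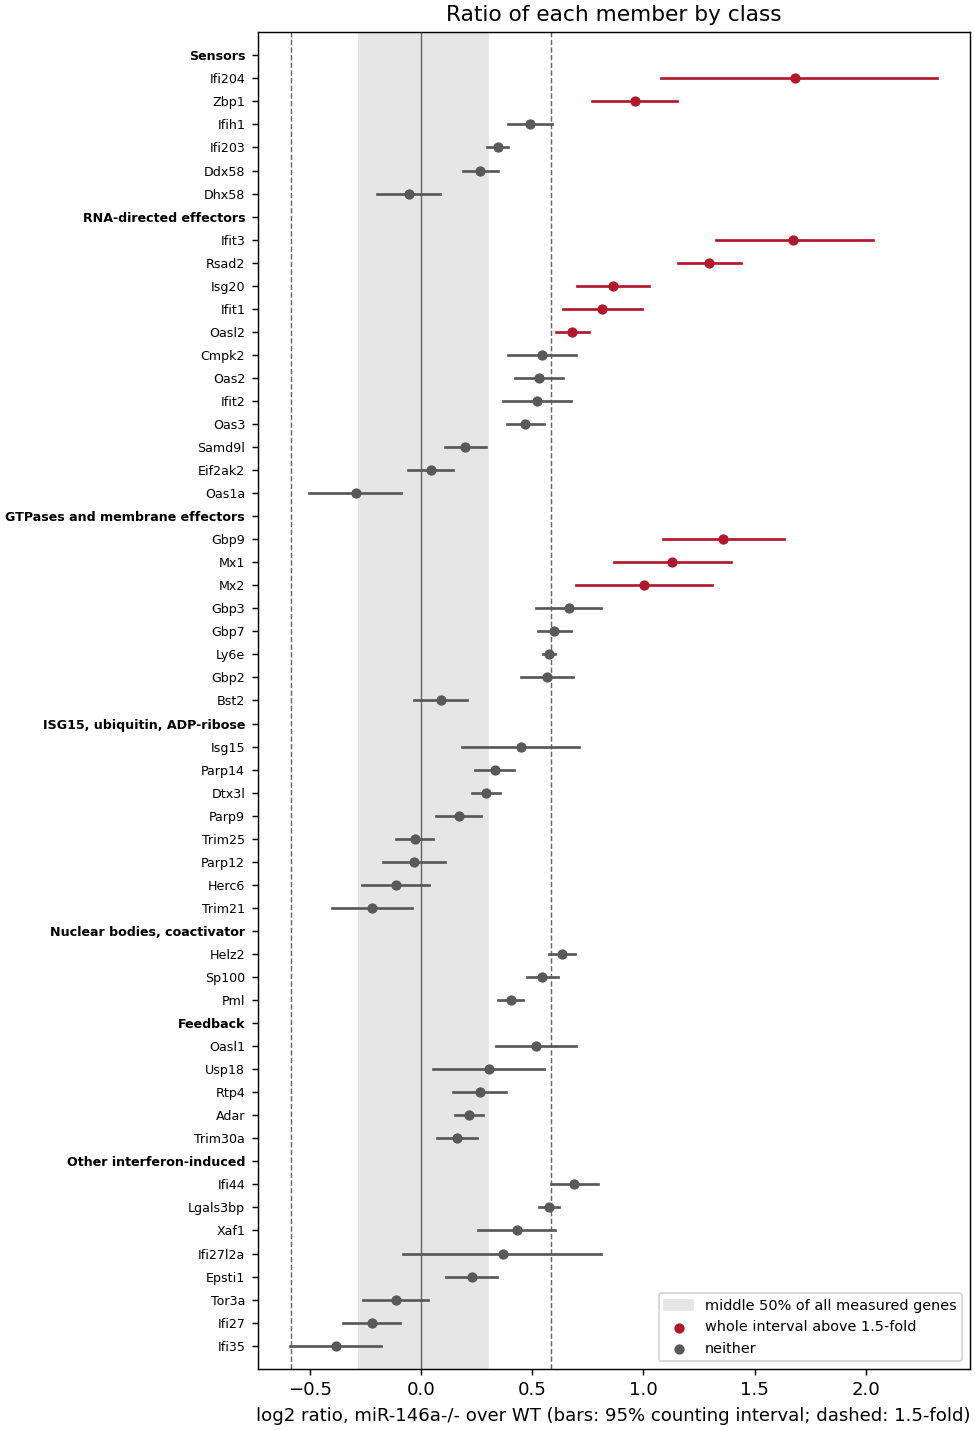
Log2 ratio of miR-146a-/- over WT for each member with its 95% counting interval, by class; dashed lines mark 1.5-fold and the grey band the middle 50% of all measured genes. The 10 members in red are 2 sensors, 5 RNA-directed effectors and 3 GTPases, and the 8 genes of the ISG15, ubiquitin and ADP-ribose class lie between -0.22 and 0.45.

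GTPases and membrane effectors had the highest class median, 0.63, and the ratio was above 0 for all 8. Of these, 3 were higher and 0 lower, against 5.35% and 1.53% of all measured genes. Gbp9, a guanylate-binding protein gene, had 221 counts in miR-146a-/- and 240 in WT, or 13.2 and 5.15 CPM (1.36, 1.09 to 1.63). It shares exon sequence on the same strand with its neighbours Gbp4 and Gbp8, so its count is uncertain. Mx1 and Mx2 encode dynamin-like GTPases that trap viral ribonucleoproteins. Mx1 had 13.2 CPM in miR-146a-/- and 6.01 in WT (1.13, 0.87 to 1.39), and Mx2 had 9.33 and 4.65 CPM (1.0, 0.70 to 1.31). As background, C57BL/6 mice carry a deletion in Mx1 and make no working protein from it, and Mx2 is annotated here as a polymorphic pseudogene, so these values are transcript levels only. Gbp2 had 55.8 CPM in miR-146a-/- and 37.6 in WT (0.57, 0.45 to 0.68). Gbp3 (0.66), Gbp7 (0.60), Gbp2 and Ly6e (0.58, 0.55 to 0.60) were not called, since their lower bounds lay under the threshold, which is 0.58 on the log2 scale. Ly6e had 17243 counts in miR-146a-/- and 32254 in WT, or 1031 and 692 CPM. Bst2, or tetherin, which holds budding virions on the cell, was the lowest of the class, with 48.9 CPM in miR-146a-/- and 46.0 in WT (0.09, -0.03 to 0.21).

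Genes of ISG15 conjugation, ubiquitin ligation and ADP-ribosylation had the lowest class median, 0.07, with 0 of 8 called. Shares of 5.35% higher and 1.53% lower, as over all measured genes, would also give few or no calls among 8. Isg15, the ubiquitin-like modifier, had 180 counts in miR-146a-/- and 367 in WT, or 10.8 and 7.87 CPM (0.45, 0.19 to 0.71). Herc6, the ligase that attaches ISG15 in mice, had 28.5 and 30.8 CPM (-0.11, -0.26 to 0.04). The modifier and its ligase therefore lay on opposite sides of 0, with the interval of Herc6 including 0. Trim21, a cytosolic antibody receptor and ubiquitin ligase, had 19.9 CPM in miR-146a-/- and 23.1 in WT (-0.22, -0.40 to -0.04). Trim25, a ligase that acts on the RIG-I pathway, had 96.4 and 98.2 CPM (-0.03, -0.11 to 0.06). The partners Parp9 and Dtx3l, which form a complex, lie head to head on chromosome 16 and share 458 bases of exon on opposite strands. Their ratios were 0.17 and 0.29, and Dtx3l was the most abundant of the class at 178 CPM in miR-146a-/- and 145 in WT. The neighbouring Parp14, another ADP-ribosyltransferase gene, had 93.9 CPM in miR-146a-/- and 74.6 in WT (0.33, 0.24 to 0.42), and Parp12 was at -0.03.

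Of the 3 nuclear genes, 0 were called, and the shares over all genes (5.35% higher, 1.53% lower) would give few or none. All had intervals above 0 and the median was 0.55. Pml, which builds the nuclear bodies named after it, had 230.03 CPM in miR-146a-/- and 174 in WT (0.40, 0.35 to 0.46). Sp100, another component of those bodies, had 147 and 101 CPM (0.55, 0.47 to 0.62). Helz2, a helicase that acts as a coactivator of nuclear receptors, had 211 and 136 CPM (0.63, 0.57 to 0.69). The lower bound of Helz2 was just below 1.5-fold, and it passed the threshold under DESeq2 and upper-quartile scaling. Adjusted for length and GC content, the median of the nuclear genes was 0.32.

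Of the feedback genes 0 of 5 were called, and the shares over all genes (5.35% higher, 1.53% lower) would give few or none. Their median was 0.26, and each interval lay above 0. Adjusted for length and GC content, this median was 0.41, so the order of the feedback and nuclear classes turned. Usp18 removes ISG15 from proteins and blocks signalling at the interferon receptor. It had 194 counts in miR-146a-/- and 437 in WT, or 11.6 and 9.37 CPM (0.31, 0.06 to 0.55). Oasl1, which in mice holds back translation of the Irf7 mRNA, had 23.2 and 16.2 CPM (0.52, 0.34 to 0.70). Rtp4, a brake on the kinase TBK1, had 49.3 CPM in miR-146a-/- and 41.0 in WT (0.26). Adar, which edits the cell's own double-stranded RNA so that MDA5 does not respond to it, had 168.5 CPM in miR-146a-/- and 145 in WT (0.22, 0.15 to 0.28). Trim30a, which limits Toll-like receptor signalling in mice, had 85.8 and 76.7 CPM (0.16, 0.07 to 0.25). The difference between the feedback and effector classes was not tested.

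Among the other interferon-induced genes 0 of 8 were called, where the shares over all genes (5.35% higher, 1.53% lower) would give few or none. The ratios ran from -0.38 to 0.69. Ifi44 had 68.0 CPM in miR-146a-/- and 42.2 in WT (0.69, 0.58 to 0.80), with the lower bound just under 1.5-fold. Lgals3bp had 393 and 263 CPM (0.58, 0.53 to 0.62). Xaf1, a promoter of cell death that opposes the inhibitor XIAP, had 24.4 and 18.1 CPM (0.43), and Ifi27l2a, with 64 counts in miR-146a-/- and 138 in WT, had an interval from -0.08 to 0.81. Ifi35 was the lowest member of all 50, with 253 counts in miR-146a-/- and 918 in WT, or 15.1 and 19.7 CPM (-0.38, -0.59 to -0.18). Ifi27 had 38.4 and 44.7 CPM (-0.22, -0.35 to -0.09) and Tor3a, a torsin ATPase gene, had 30.7 and 33.1 CPM (-0.11, -0.26 to 0.03). Epsti1 stood at 0.23. Together with Oas1a and Trim21, Ifi35 and Ifi27 make up the 4 members whose whole interval lay below 0, and none of them reached 1.5-fold.

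Many members sit beside paralogs, and these were compared by locus; the loci were laid out after the values were seen, so no test is given. In the PYHIN cluster of chromosome 1 (173350879 to 174031810, mm10), 6 of 10 measured genes were higher, against 5.35% of all measured genes. Ifi213 had 298 counts in miR-146a-/- and 221 in WT (1.91, 1.65 to 2.17), Ifi209 had 172 and 164 (1.54), Ifi208 had 50 and 57 (1.28), and Ifi206 had 380 and 544 (0.96). Ifi205 had 17 and 12 counts (1.92, 0.83 to 3.18). At its WT level in both libraries it would not have reached the minimum of 20 summed counts, so its call leans on the filter. The abundant neighbours Ifi203 and Mndal, which share exon sequence, were both at 0.35, and Aim2, the inflammasome sensor of DNA, was at 0.37. In this cluster the high ratios therefore belonged to genes with fewer counts. In the Ifit cluster of chromosome 19, Ifit1bl1 had 119 counts in miR-146a-/- and 115 in WT (1.52, 1.15 to 1.91), and Ifit3b, a close copy of Ifit3, had 36 and 44 (1.18, 0.51 to 1.86).

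The guanylate-binding genes lie in separate clusters. On chromosome 3, 0 of 4 measured genes were called, where the shares over all genes (5.35% higher, 1.53% lower) would give few or none. The ratios there ran from 0.41 to 0.66. On chromosome 5, 2 of 4 were higher: Gbp9 and its neighbour Gbp4, which had 280 counts in miR-146a-/- and 276 in WT (1.497, 1.25 to 1.74). Gbp8 was at 0.77 and Gbp11, with 11 and 29 counts, at 0.08. Within the Oas cluster of chromosome 5, the Oas1 genes ran from -0.29 for Oas1a through 0.02 for Oas1b and 0.15 for Oas1c to 0.62 for Oas1g, which had 110 counts in miR-146a-/- and 199 in WT. Near-identical paralogs can exchange reads in counting, so differences within these families are uncertain.

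**Figure D4:**
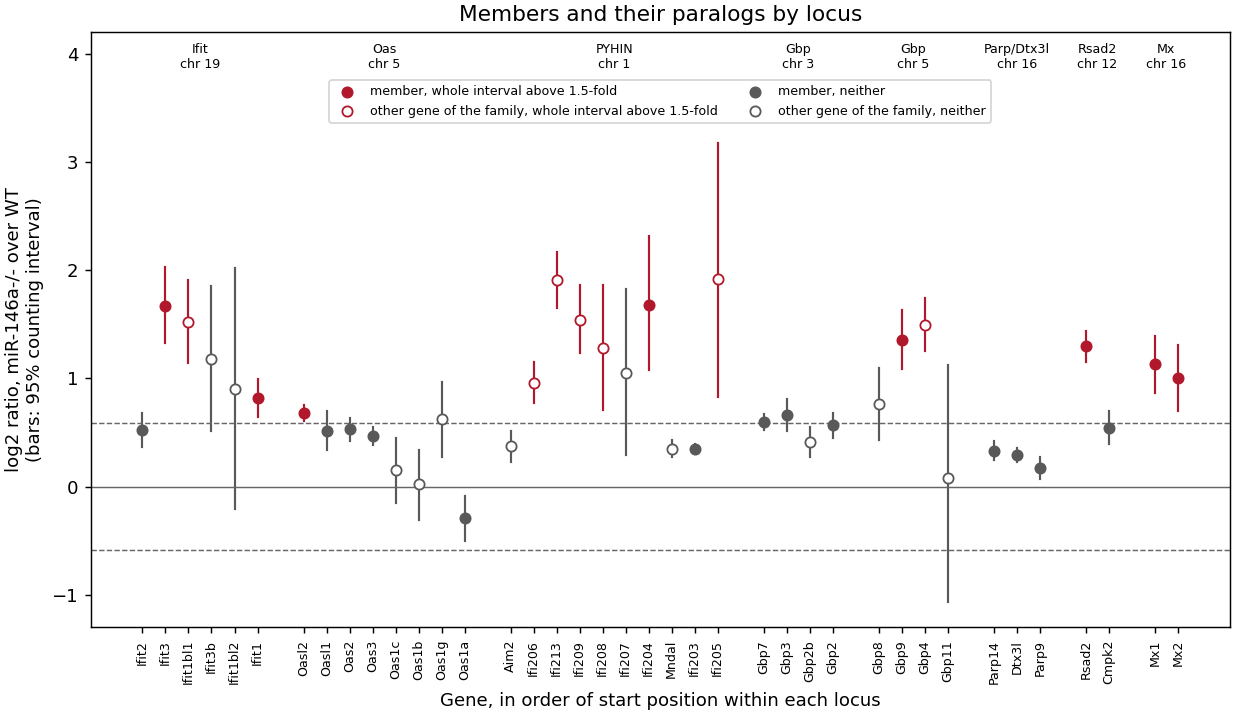
Log2 ratio of miR-146a-/- over WT with 95% counting intervals for members (filled) and listed paralogs (open) in order along each locus. In the PYHIN cluster 6 of 10 genes are red, or called higher, and in the chromosome 3 Gbp cluster 0 of 4. The call of Ifi205, 1 of the 6, leans on the filter of 20 summed counts. Of all measured genes, 5.35% were called higher.

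The pathway upstream of these genes was read from lists chosen by function, with earlier results of these data known. Of the interferon ligands, 17 had a row in the table, and 13 of these had 0 counts in both libraries. Ifnb1 had 2 counts in miR-146a-/- and 0 in WT, Ifng had 3 and 1, and Ifna1 had 1 and 0, so no ratio is given at or under the floor of 3 counts. Of 5 measured receptor genes 0 were called, where the shares over all genes (5.35% higher, 1.53% lower) would give few or none. Ifnar1 was at 0.07, Ifnar2 at 0.26, Ifngr1 at 0.0046 and Ifngr2 at -0.03. In the complex that binds the ISRE, Stat2 had 985 counts in miR-146a-/- and 1799 in WT (0.61, 0.50 to 0.72) and Irf9 had 1327 and 3129 (0.24, 0.15 to 0.33). Neither was called, and the interval of each lay above 0. Of the kinases, Jak1 was at 0.13 and Tyk2 at -0.42. Of the interferon regulatory factors that induce interferon or its targets, 2 of 5 were higher (5.35% of all measured genes were): Irf1 (0.98, 0.91 to 1.05) and Irf7 (0.93, 0.83 to 1.03), while Irf3 was at -0.30.

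Adaptors, kinases and Toll-like receptors of nucleic acid sensing had 1 of 12 higher, a share near that of all genes: Tlr9, with 53 counts in miR-146a-/- and 51 in WT (1.52, 0.95 to 2.12). Mavs, the adaptor of RIG-I and MDA5, was at -0.07, and the list median was 0.05. Brakes of receptor signalling had 1 of 6 higher, against 5.35% of all measured genes: Socs3 (0.87), with Socs1 at 0.09. Genes that lean to interferon-gamma had 6 of 9 higher and 0 lower, Irf1 again among them, against 5.35% and 1.53% of all measured genes. The median of the 9 was 0.80, and some of these genes also respond to NF-kB. The chemokine Cxcl10 had 463 counts in miR-146a-/- and 117 in WT (3.46, 3.17 to 3.77), Cxcl9 had 19 and 12 (2.08), and Ciita, the coactivator of MHC class II genes, had 226 and 297 (1.08). Cd274, which encodes PD-L1, was at 0.80 and the adhesion molecule gene Icam1 at 0.77. At its WT level in both libraries Cxcl9 would not have reached the minimum of 20 summed counts, so its call leans on the filter. Over all these lists and the paralogs of the members, 18 of 81 measured genes that are no member were higher and 0 lower, against 5.35% and 1.53% of all measured genes.

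**Figure D5:**
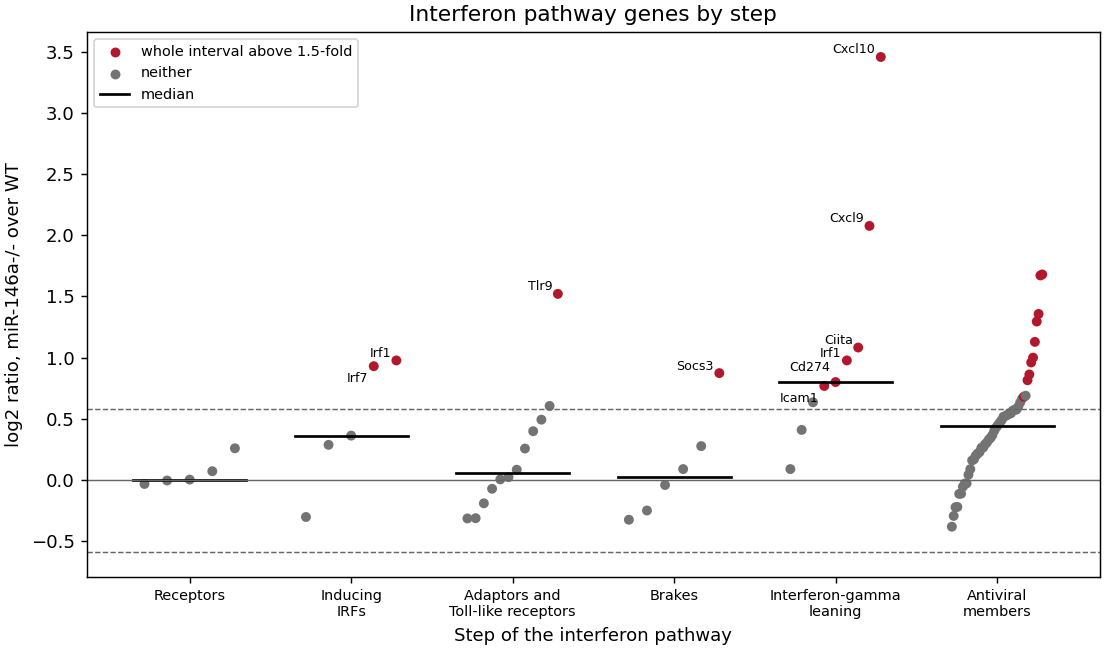
Log2 ratio of miR-146a-/- over WT for measured genes by step of the interferon pathway, with black bars at the list medians and red points for genes called higher. Receptors lie between -0.03 and 0.26. Irf7 and 6 of 9 interferon-gamma leaning genes are called higher, as were 5.35% of all measured genes. Irf1, 1 of the 6, is drawn with the inducing IRFs as well. The call of Cxcl9, also 1 of the 6, leans on the filter of 20 summed counts.

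Markers of LSK cells were present in both libraries. Ly6a, which encodes Sca-1, had 1248 counts in miR-146a-/- and 3113 in WT (0.16), and Kit had 12167 and 26003 (0.38). The 10 LSK markers had ratios on both sides of 0, with a median of 0.38: Hlf (0.38), Meis1 (0.39) and Mecom (0.53) had intervals above 0, and Cd34 (-0.19), Flt3 (-0.23) and Procr (-0.39) had intervals below 0. Of the 10, 1 was called higher, Gata2 (0.97), and 0 lower, where the shares over all genes (5.35% higher, 1.53% lower) would give few or none. The part of these markers in the result was not tested. Of cells that the sort should remove, markers of T and NK cells, granulocytes and erythroid cells were scarce. Of 7 T and NK cell markers, Cd3d, Cd3e, Cd3g and Cd8a were at 0 in both libraries. Of the 2 measured, 1 was higher (Cd4, 68 and 86 counts), against 5.35% of all measured genes. The summed level of the 7 was 5.98 CPM in miR-146a-/- and 2.81 in WT. The 6 B cell markers summed to 16.8 and 16.9 CPM, nearly all from Cd79b. Of 8 granulocyte markers, 3 of 5 measured were lower (Ltf, Ngp and S100a9), against 1.53% of all measured genes. The sum of the 8 was 5.501 CPM in miR-146a-/- and 12.6 in WT. Erythroid markers summed to 2.15 and 2.06 CPM, with Alas2 and Slc4a1 at 0. Of 10 monocyte and macrophage markers, 0 of 9 measured were called, where the shares over all genes (5.35% higher, 1.53% lower) would give few or none. The sum of the 10 was 93.8 CPM in miR-146a-/- and 61.0 in WT, mostly Itgam (0.66) and Cd68 (0.63). Plasmacytoid dendritic cells make much interferon and carry Bst2. Their marker Siglech had 2 counts in miR-146a-/- and 5 in WT and Klk1 had 0. The list, which includes the member Bst2, summed to 255 and 196 CPM, mostly from Tcf4. The part of the monocyte markers in the result was not tested.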

How the data were processed

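The authors deposited 1 table of whole-number counts per Ensembl gene, with no normalisation. Per the file headers, splice junctions were placed on the genome and duplicates flagged. STAR 2.5.3a and Salmon 0.9.0 are listed, per the submitters' processing notes, with the build mm10 and no stated roles. How reads were assigned to genes (program, annotation, strand, duplicates) is not given in the sources used, so reads of overlapping genes, including those of 17 members that share exon bases with another gene, cannot be separated.

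Names, positions and 3' regions came from GENCODE M21 (37693 of 39017 identifiers), promoters and the microRNA from RefSeq. TMM scaling used edgeR 4.0.16 in R 4.3.3 over genes with at least 20 summed counts. As neither genotype had replicates, no quasi-likelihood test was run and no p-value is given. Log2 ratios used a prior count of 0.5, and intervals came from SciPy 1.17.1. A check on simulated counts, whose only noise was counting error, tested the calculation and not how well the intervals fit these libraries. The intervals hold counting error alone, and PCR copies of a molecule are counted as separate reads. All 50 members are accounted for; called genes, class extremes and the most abundant member of each class get full values. Members, classes and lists were chosen with earlier results of these data known. In the lists, Mb21d1 was matched to Cgas through RefSeq synonyms. Alternatives were DESeq2 1.42.0 size factors, other scalings, filters, thresholds, a prior count of 5, protein-coding genes alone, and a correction for GC content and length of transcripts. A few listed genes are not reported here by name; they remain in the counts and sums of their lists.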

Additional observations from a re-analysis of the deposited data

How the results depend on the processing

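Scaling moved the results most. By total counts the median of all genes shifted to -0.83 and the members' median to -0.38, with 0 members higher and 11 lower, among 140 higher and 7077 lower genes; medians became -0.40 for sensors, -0.28 for RNA-directed effectors, -0.19 for GTPases and membrane effectors, -0.75 for the ISG15 and ubiquitin class, -0.28 for nuclear genes, -0.56 for feedback and -0.52 for the others. Counts of members lower by class were 1, 2, 1, 4 and 3 (sensors, RNA-directed, GTPase, ubiquitin, others), 0 sensors, RNA-directed effectors and GTPases were higher, and 8 of 50 members had a ratio above 0, against 41 by TMM. Of the 10 called members, Ifit1 (-0.0048) and Oasl2 (-0.14) were then below 0. Other pathway genes became 2 higher and 25 lower. Relative to all genes, the members' median stood 0.45 higher by total counts as by TMM. A change of scaling shifts all ratios by nearly the same amount and a threshold shifts none. This gap could therefore hardly move under those settings. It lay between 0.43 and 0.47 under the filters, prior count, protein-coding genes alone and the length and GC adjustment. Without the 17 members with exonic overlaps the members' median was 0.52. By total protein-coding counts 6 members were higher (2 RNA-directed), among 496 higher and 574 lower genes. Medians were then 0.28 for members, 0.26 for sensors, 0.38 for RNA-directed effectors and 0.47 for GTPases. They were -0.090 for the ubiquitin class, 0.38 for nuclear genes, 0.10 for feedback and 0.14 for others.

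DESeq2 and upper-quartile scaling, 200 counts and protein-coding genes alone each added 1 nuclear gene (Helz2) and 1 other (Ifi44) to the calls. Ly6e was also added with 200 counts and with the length and GC adjustment. Left out were Ifi204 with 200 counts and Mx2, annotated as a pseudogene, with protein-coding genes alone. With 200 counts 1 sensor was higher, among 491 higher and 130 lower genes. With no filter 8 members and 3 RNA-directed effectors were higher (without Ifit1 and Oasl2), among 740 higher and 322 lower genes of 20304. Beyond 2-fold, which is stricter by construction, 4 members were higher (Gbp9, Ifi204, Ifit3 and Rsad2; 1 sensor, 2 RNA-directed and 1 GTPase), among 294 higher and 42 lower genes, with 6 other pathway genes. By the point ratio 14 members were higher, 5 GTPases, 1 nuclear gene and 1 other included, among 1750 higher and 1109 lower genes, with 28 other pathway genes. After length and GC adjustment the medians were 0.32 for nuclear genes and 0.41 for feedback. For the filters, scalings and adjustment the cause was not tested. A prior count of 5, the mean, and leaving out the 17 members with exonic overlaps kept the counts and median of the members within 1.5 times or the counting interval. No paired analysis was possible because each genotype had 1 library. Depth limits the members with the fewest counts, Ifi204 and Ifi27l2a.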

Other observations

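Other interferon-induced families showed mixed values. Of 41 measured paralogs and relatives of the members, 8 were higher and 0 lower, against 5.35% and 1.53% of all measured genes. The median log2 ratio of the 41 was 0.40, against -0.01 over all measured genes. Among the interferon-induced transmembrane genes, which limit entry of viruses into cells, Ifitm3 had 381 CPM in miR-146a-/- and 247 in WT (0.62, 0.58 to 0.67) and Ifitm2 had 262 and 185 (0.50), while Ifitm1 had 256 and 301 (-0.23, -0.28 to -0.18). The Schlafen genes, regulators of growth and of viral translation, divided: Slfn5 was at 0.52 and Slfn8 at 0.40, and Slfn9 was at -0.21 and Slfn3 at -0.30. Of the nuclear body relatives, Sp140 was at 0.66 and Sp110 at -0.03. Phf11a, with 14 counts in miR-146a-/- and 8 in WT, was higher (2.19, 0.93 to 3.75). At its WT level in both libraries it would not have reached the minimum of 20 summed counts. The same holds for Ifi205. Both are among the 8 called genes, and their calls lean on the filter. Near-identical copies in these families can share reads.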
